A study of Mus musculus with 45 samples.

Results

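Nucleus accumbens RNA of 12 alcohol-drinking and 11 water-drinking mice that had all received the designer drug clozapine N-oxide (CNO) was compared, gene by gene. These 23 libraries were chosen by their fluid and treatment labels alone and are part of 45 libraries in the series, each from a different mouse. All were female mice of the HDID-1 line (selection generation S35.G37), which was bred for high blood alcohol after drinking in the dark. Both groups carried the same pair of viruses in the nucleus accumbens on both sides, 0.5 uL each of rAAV2/5-CMV-Cre-GFP and rAAV2-hSyn-DIO-hM3Dq-mCherry. The mice lived alone and had a daily drinking session for 6 weeks, with CNO at 1 mg/kg in weeks 2 to 5 and vehicle in weeks 1 and 6. The fluid, alcohol or water, was the labelled difference between them. The comparison therefore asks how alcohol drinking differed from water drinking in tissue with a history of stimulation, after a closing week without CNO. The other 22 libraries, from 11 alcohol and 11 water drinkers that had vehicle throughout and the same viruses, serve below as a separate comparison of the same fluids.

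Several features of the model bound what the groups can show. The receptor gene sits behind a neuronal promoter (hSyn) and needs Cre, which the CMV promoter drives without a cell type limit, so any Cre-positive neuron near the injection could express it. Neither group lacked the virus. Tube numbers ran from 1 to 21 in the alcohol group and from 25 to 43 in the water group, so tube order and fluid cannot be told apart. HDID-1 mice come from a heterogeneous stock and differ genetically from one another. The age of the mice is not given in the sources used here.

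The nucleus accumbens is the ventral part of the striatum. Most of its cells are medium spiny neurons, GABA neurons that carry either the D1 or the D2 dopamine receptor, with smaller numbers of cholinergic and GABA interneurons and of glia. hM3Dq is an engineered muscarinic receptor that couples to Gq and makes neurons fire more when CNO binds it. Heat shock genes encode chaperones and are switched on by the factor Hsf1 when proteins misfold, while glucocorticoid-induced genes follow the stress hormone corticosterone through the glucocorticoid receptor.

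The tissue had the transcripts its label calls for. All 18 medium spiny neuron markers were detected, and their mean log2 CPM (CPM are read counts scaled to a common library size) ran from 8.84 to 9.41 in alcohol CNO libraries and from 8.89 to 9.27 in water CNO libraries. Reads assigned to genes numbered 27.1 M to 34.9 M in alcohol libraries and 29.6 M to 39.5 M in water libraries. Markers of cortical glutamatergic neurons, which are not accumbens cells, stood apart in 3 libraries: their mean log2 CPM was 2.45 and 2.68 in alcohol replicates 2 and 12 and 2.46 in water replicate 1, and between 3.69 and 5.36 in the other 20. Since these are punches of mixed tissue, fewer cells of a type and less RNA per cell cannot be told apart in any value below.

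No gene passed correction between alcohol and water drinkers under CNO. Of 15852 genes tested with edgeR's quasi-likelihood test, 0 passed a Benjamini-Hochberg adjusted p of 0.05, and the smallest adjusted p was 0.478. At an unadjusted p under 0.05 there were 1031 genes, 6.5% of those tested, with 451 higher (2.85%) and 580 lower (3.66%) in alcohol drinkers. DESeq2 also called 0 genes, voom with sample weights called 1 and a fit with surrogate variables called 6. The differences were small: the median size of the log2 fold change was 0.053 over all genes and 0.14 over the 1031, with median standard errors of 0.065 and 0.059. All genes and lists below are therefore described by their values, and none is called.

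Zfp622 and Emc6 had the smallest p among the lower genes. Zfp622, on chromosome 15 (chr15:25984366-25998481, GRCm38), encodes the counterpart of yeast Rei1, a late factor in maturation of the large ribosomal subunit. The lowest, median and highest Zfp622 levels were 32.2, 35.9 and 42.2 CPM in alcohol and 38.3, 40.9 and 45.0 CPM in water drinkers. Its log2 fold change of -0.20 ± 0.044 (SE) had an adjusted p of 0.478 in edgeR. Of the 12 alcohol libraries, 11 lay below the water median and 9 below the lowest water library. In alcohol drinkers Emc6 stood at 28.3, 29.8 and 35.1 CPM (lowest, median, highest), and in water drinkers at 31.5, 34.3 and 37.5 CPM. This is a log2 fold change of -0.16 ± 0.037 (SE; edgeR adjusted p = 0.478). Emc6 (chr11:73175519-73177037) is a subunit of the endoplasmic reticulum membrane protein complex, which inserts proteins into that membrane, and 8 of 12 alcohol libraries were below every water library. Bloc1s4 levels were 9.33, 10.3 and 12.7 CPM in alcohol libraries, from lowest over median to highest, and 10.7, 12.2 and 13.5 CPM in water libraries. Bloc1s4 (chr5:36747378-36748650) is a subunit of a complex that builds lysosome-related organelles. The log2 fold change was -0.21 ± 0.048 (SE), with an adjusted p of 0.599 in edgeR.

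Exosc6 and Pnrc1 separated the groups in another way, with a narrow spread in water drinkers. Lowest, median and highest values of Exosc6 came to 5.91, 6.67 and 9.11 CPM with alcohol and 8.03, 8.27 and 8.83 CPM with water. Thus 10 of 12 alcohol libraries were below every water library and 1 was above all of them. Exosc6 (chr8:111056339-111057664), a core subunit of the RNA exosome, shares exon bases with Aars, so its count is uncertain. Pnrc1 gave 28.2, 32.1 and 35.7 CPM (lowest, median and highest library) in alcohol drinkers and 33.8, 34.7 and 36.9 CPM in water drinkers. Pnrc1 is a coactivator of nuclear receptors, and again 10 of 12 alcohol libraries were below the lowest water library. Stambpl1, a ubiquitin protease, was below the water median in 12 of 12 alcohol libraries, at a log2 fold change of -0.19 ± 0.048 (SE). The other lower genes were F8a (which binds huntingtin), Rfxap (a factor for MHC class II transcription), Ten1 (a telomere protein, with an uncertain count), Pop5 (a subunit of ribonuclease P), Pgrmc2 and Nudc. Their log2 fold changes lay between -0.11 and -0.19, and edgeR's adjusted p was 0.701 for each.

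Afg3l1, Pdpr and Rbks were among the 12 higher genes. Alcohol libraries had 46.7, 49.99 and 52.5 CPM of Afg3l1 (lowest, median, highest), and water libraries 44.5, 46.1 and 48.3 CPM. Afg3l1 (chr8:123477903-123503916) encodes a subunit of a protease of the inner mitochondrial membrane. Its log2 fold change of 0.10 ± 0.026 (SE) had an adjusted p of 0.701 in edgeR. All 12 alcohol libraries were above the water median and 10 were above the highest water library, although the shift was only a few percent of the level. Pdpr ran over 24.4, 25.6 and 27.7 CPM (lowest, median, highest) in the alcohol group and 15.4, 22.4 and 25.1 CPM in the water group. Pdpr (chr8:111094630-111137074) encodes the regulatory subunit of pyruvate dehydrogenase phosphatase, which turns pyruvate dehydrogenase on. This is a log2 fold change of 0.20 ± 0.060 (SE; edgeR adjusted p = 0.701). Again 12 of 12 alcohol libraries were above the water median, and 9 were above every water library. For Rbks the lowest, median and highest values were 1.90, 2.41 and 3.13 CPM in alcohol and 1.66, 2.08 and 2.28 CPM in water libraries. Rbks encodes ribokinase, the first enzyme of ribose use. The log2 fold change was 0.31 ± 0.081 (SE), with an adjusted p of 0.701 in edgeR.

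Slc16a4 had 2.44, 3.23 and 4.00 CPM in the lowest, median and highest alcohol libraries, against 1.64, 2.65 and 3.18 CPM in the water libraries. Slc16a4 belongs to the monocarboxylate transporter family. Its log2 fold change of 0.37 ± 0.10 (SE) had an adjusted p of 0.701 in edgeR. The long noncoding RNA 5930430L01Rik was above the water median in 12 of 12 alcohol libraries at a log2 fold change of 0.44 ± 0.13 (SE), but only 3 were above the highest water library. The lowest, median and highest Cntnap1 levels were 249.7, 275 and 310.0 CPM in alcohol and 220.2, 243 and 286 CPM in water drinkers. Cntnap1, which anchors the junction of axon and myelin beside the node of Ranvier, was above the water median in 12 of 12 alcohol libraries. The remaining higher genes were Gm5607, Snx29 (a sorting nexin), B230307C23Rik, Nhlrc3, Epha8 (a receptor for ephrins) and Fubp3 (a DNA-binding protein), with log2 fold changes between 0.14 and 0.33. edgeR's adjusted p lay between 0.701 and 0.714 for the 12 higher genes. Pdpr, Cntnap1, B230307C23Rik, Nhlrc3, 5930430L01Rik and Bloc1s4 each share exon bases with an annotated neighbour. Reads in the shared bases may be counted for either gene or for neither. The same holds for several genes named below, among them Cacna1d, Mrps24, Ndufab1, Cox5a, Atp5g2, Son, Grin2b and Malat1.

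**Figure D1:**
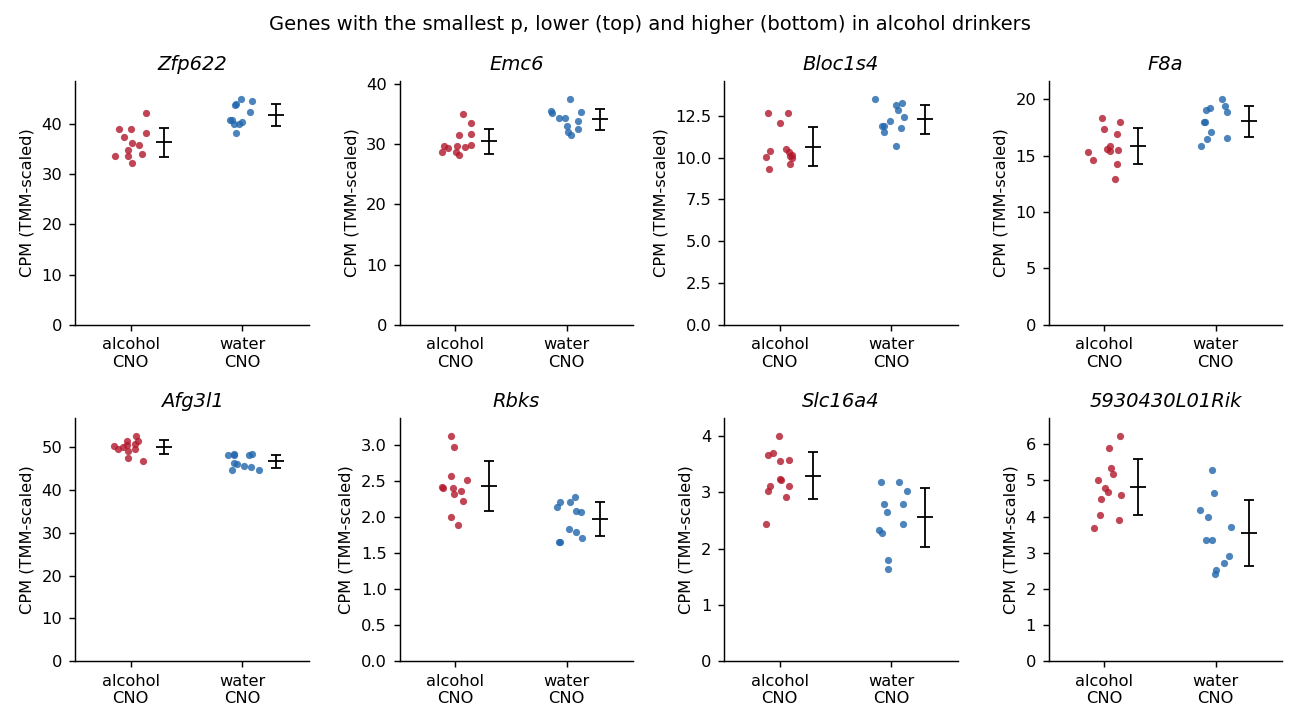
CPM per library (points) for the 4 lower and the 4 higher genes with the smallest p, with the alcohol CNO group (n = 12) on the left of each panel and the water CNO group (n = 11) on the right. Bars give the mean ± SD; the groups overlap in every panel, and in the Afg3l1 panel 10 of 12 alcohol libraries lie above the highest water library.

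The same fluids could be compared in mice that had only vehicle, and no library is common to both comparisons. Tube numbers ran from 4 to 24 in the alcohol and from 28 to 46 in the water vehicle group. Tube order and fluid therefore cannot be told apart in either comparison, nor in values that both share. Among the 12 lower genes above, 12 also had a negative log2 fold change under vehicle and 0 had an unadjusted p under 0.05 there. Among the 12 higher genes, 11 were positive under vehicle and 3 had an unadjusted p under 0.05: Slc16a4 (0.26 ± 0.11), Pdpr (0.19 ± 0.061) and Snx29 (0.18 ± 0.065). Of all 1031 genes at an unadjusted p under 0.05 under CNO, 783 (75.9%) had the same sign under vehicle, against 58.3% over all genes tested. In both comparisons, 98 genes had an unadjusted p under 0.05 with the same sign, which is 9.51% of the CNO genes and 7.39% of the 1326 vehicle genes (8.36% of those tested), and 6 had opposite signs. Across genes the fold changes correlated at Pearson r = 0.15 and Spearman rho = 0.20, a description over genes that share libraries and are not independent.

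Examples of these 98 genes, picked after their values were seen, are Kdm6a, Ube2d2a and Timm50. Kdm6a, a histone demethylase, had a log2 fold change of 0.10 ± 0.033 under CNO and 0.071 ± 0.034 under vehicle. Ube2d2a, a ubiquitin-conjugating enzyme, had -0.086 ± 0.026 under CNO and -0.071 ± 0.027 under vehicle. Timm50, a subunit of the mitochondrial protein import machinery, had -0.11 ± 0.034 and -0.076 ± 0.035 in the same order. A test of the difference between the fluid effects under CNO and under vehicle called 0 of 15852 genes with edgeR, with 496 (3.13%) at an unadjusted p under 0.05, 1.34% higher and 1.79% lower under CNO than under vehicle, and a smallest adjusted p of 0.983. Slpi had the largest size among its first 10 genes, -4.05 ± 1.05 on the log2 scale. Vehicle libraries varied more in immune genes: the mean log2 CPM of antigen presentation genes reached 7.08 in alcohol vehicle libraries and at most 3.56 in alcohol CNO libraries.

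Many heat shock genes had lower values in alcohol drinkers under CNO. Of 15 tested, 13 had a negative log2 fold change and 6 (40%) were lower at an unadjusted p under 0.05, against 3.66% of all genes, and the median was -0.098 against 0.0034 over all genes. In alcohol drinkers Dnajb1 stood at 52.2, 58.5 and 70.2 CPM (lowest, median, highest), and in water drinkers at 57.4, 69.3 and 86.7 CPM. Dnajb1 is a cochaperone that hands misfolded proteins to Hsp70. This is a log2 fold change of -0.23 ± 0.076 (SE; edgeR adjusted p = 0.714). Of 12 alcohol libraries, 10 were below the water median and 4 below the lowest water library, so the groups overlapped. Hspa1a levels were 1.25, 2.09 and 2.77 CPM in alcohol libraries, from lowest over median to highest, and 1.57, 2.65 and 3.82 CPM in water libraries. Hspa1a is the classic inducible Hsp70. The log2 fold change was -0.42 ± 0.16 (SE), with an adjusted p of 0.737 in edgeR. Lowest, median and highest values of Hspa1b came to 0.844, 2.44 and 3.64 CPM with alcohol and 2.07, 3.31 and 5.43 CPM with water. Its near-identical copy Hspa1b had a log2 fold change of -0.50 ± 0.24. Reads that align to both copies may be counted for neither, so the levels of both genes are uncertain.

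Hsp90ab1, Dnaja1 and Hspe1 had smaller log2 fold changes, also negative. Hsp90ab1 gave 1521, 1779 and 1955 CPM (lowest, median and highest library) in alcohol drinkers and 1682, 1874 and 2081 CPM in water drinkers. Its log2 fold change of -0.10 ± 0.038 (SE) had an adjusted p of 0.738 in edgeR. Hsp90ab1 is a constitutive Hsp90. Alcohol libraries had 99.7, 112 and 124 CPM of Dnaja1 (lowest, median, highest), and water libraries 109, 121 and 132 CPM. Hspe1 ran over 18.9, 22.5 and 27.1 CPM (lowest, median, highest) in the alcohol group and 21.9, 24.2 and 28.6 CPM in the water group. Dnaja1, another Hsp70 cochaperone, had a log2 fold change of -0.10 ± 0.041 and Hspe1, the mitochondrial cochaperonin, -0.11 ± 0.051. Hsph1, Hsp90aa1, Chordc1, Hspb1, Bag3 and Hspd1 had values between -0.055 and -0.25 with an unadjusted p above 0.05. Hspa8, the constitutive Hsc70, had 0.031 ± 0.20 and Hsf1, the regulator, 0.011 ± 0.078.

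Means of Dnajb1 and Hspa1a over the 4 groups of the study were highest in water drinkers under CNO. Dnajb1 averaged, among CNO libraries, 60.4 CPM ± 6.68 (SD, n = 12) with alcohol and 70.6 CPM ± 9.31 (SD, n = 11) with water, and among vehicle libraries 62.8 CPM ± 8.82 (SD, n = 11) with alcohol and 64.3 CPM ± 8.71 (SD, n = 11) with water. Hspa1a averaged, among CNO libraries, 2.02 CPM ± 0.521 (SD, n = 12) with alcohol and 2.71 CPM ± 0.731 (SD, n = 11) with water, and among vehicle libraries 2.13 CPM ± 0.511 (SD, n = 11) with alcohol and 2.24 CPM ± 0.629 (SD, n = 11) with water. For both genes the 3 groups other than water CNO were close to one another. For the whole heat shock list both vehicle means lay between the CNO means. Its mean log2 CPM was 5.63 ± 0.14 (SD, n = 12) in alcohol CNO and 5.77 ± 0.17 (SD, n = 11) in water CNO libraries. It was 5.70 ± 0.17 (SD, n = 11) in alcohol vehicle and 5.70 ± 0.16 (SD, n = 11) in water vehicle libraries. Whether the list was lowered in alcohol CNO or raised in water CNO libraries was not tested. Under vehicle the list had 8 positive and 7 negative members, a median of 0.0010 and 0 at an unadjusted p under 0.05 (2.42% of all genes were lower there at that p). The difference between the fluid effects was not past the threshold for either gene: it was -0.19 ± 0.11 for Dnajb1 and -0.35 ± 0.23 for Hspa1a, with adjusted p of 0.983 for both in edgeR.

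Promoters of 3 of these genes are printed because a spaced heat shock motif can be read in them. The letters searched were GAANNTTC and TTCNNGAA, which are the same on both strands and can overlap each other, in the 250 bases before the RefSeq start (GRCm38.p6). Capitals mark the matches. Dnaja1 has 1 match, whose first base is 124 bases before the start (chr4:40722218-40722467, plus strand). Hspa1a has 1 match, 104 bases before the start (chr17:34972157-34972406, minus strand). Hspe1 has 3 overlapping matches (chr1:55087898-55088147, plus strand).
Dnaja1: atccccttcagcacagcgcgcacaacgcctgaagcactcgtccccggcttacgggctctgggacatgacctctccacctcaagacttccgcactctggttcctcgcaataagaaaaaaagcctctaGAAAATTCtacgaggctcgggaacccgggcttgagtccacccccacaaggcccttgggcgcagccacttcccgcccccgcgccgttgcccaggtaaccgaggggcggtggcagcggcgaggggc
Hspa1a: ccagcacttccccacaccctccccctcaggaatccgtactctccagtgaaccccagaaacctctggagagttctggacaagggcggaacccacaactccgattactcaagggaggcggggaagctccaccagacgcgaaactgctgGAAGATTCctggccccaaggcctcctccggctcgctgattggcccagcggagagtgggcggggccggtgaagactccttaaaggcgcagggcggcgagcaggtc
Hspe1: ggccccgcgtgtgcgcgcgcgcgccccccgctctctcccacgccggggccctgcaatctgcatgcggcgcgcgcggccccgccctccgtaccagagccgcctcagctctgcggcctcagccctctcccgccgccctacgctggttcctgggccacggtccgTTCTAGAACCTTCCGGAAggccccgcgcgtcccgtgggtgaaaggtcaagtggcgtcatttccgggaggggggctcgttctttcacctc

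A match was found in 6 of 11 heat shock promoters in the RefSeq table and in 1219 of 11900 promoters of tested genes (10.2%). Of the 6 heat shock genes at an unadjusted p under 0.05, 5 had a promoter in the table and 4 of those held a match: Dnaja1, Hspa1a, Hspa1b and Hspe1. The promoter of Dnajb1 holds none within these bases. A match is a description of the letters and says nothing about binding.

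Glucocorticoid-induced genes leaned the same way. Of 15 tested, 13 were negative and 5 (33.3%) were lower at an unadjusted p under 0.05, against 3.66% of all genes, with a median of -0.097. For Ddit4 the lowest, median and highest values were 32.4, 38.6 and 43.6 CPM in alcohol and 37.5, 41.8 and 54.3 CPM in water libraries. Ddit4 is a stress-induced inhibitor of mTORC1, the kinase complex that promotes growth. This is a log2 fold change of -0.19 ± 0.052 (SE; edgeR adjusted p = 0.701). Of 12 alcohol libraries, 11 were below the water median and 5 below every water library. Sgk1 had 66.8, 80.2 and 102 CPM in the lowest, median and highest alcohol libraries, against 69.5, 88.8 and 136 CPM in the water libraries. Sgk1, a kinase induced by glucocorticoids, had a log2 fold change of -0.20 ± 0.094, and its highest water library lay well above the highest alcohol library. Errfi1 (-0.10 ± 0.041), Map3k6 (-0.26 ± 0.12) and Cdkn1a (-0.21 ± 0.10) were the others at an unadjusted p under 0.05.

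The best known genes of this group had smaller values. Fkbp5, a chaperone that restrains the glucocorticoid receptor, had -0.040 ± 0.052. Per1, a clock gene with a glucocorticoid response element, had 0.028 ± 0.071, and the metallothioneins Mt1 and Mt2 had -0.019 ± 0.065 and -0.029 ± 0.077. Under vehicle the list median was 0.070, with 2 members higher at an unadjusted p under 0.05 (5.94% of all genes were higher there at that p). Without the 3 libraries low in cortical markers, 1 member rather than 5 was lower at an unadjusted p under 0.05, with a median of -0.075. In that fit 525 of 15868 genes were lower at that p. Leaving out 1 library at a time gave 2 to 6 lower members for this list and 3 to 6 for the heat shock genes. Over all genes, 404 to 986 were lower in those fits. With the cortical marker score as a covariate, 3 members of each of the 2 lists were lower, against 457 of 15852 genes.

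**Figure D2:**
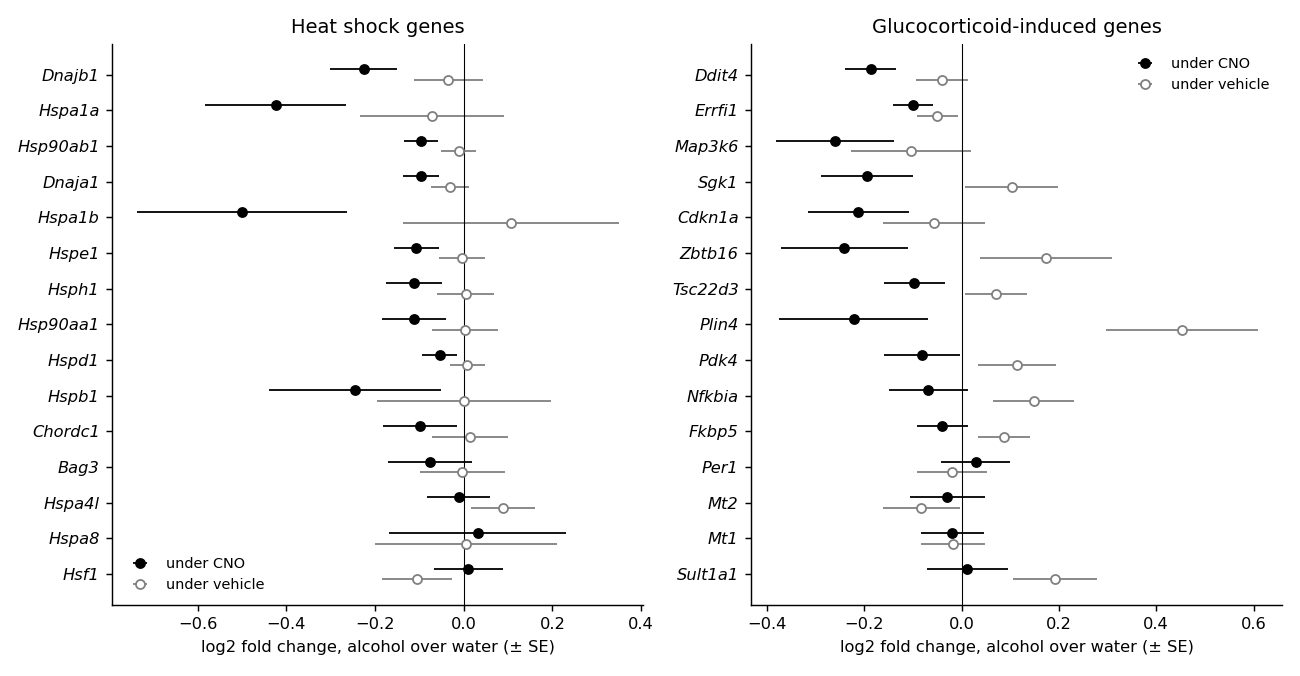
Log2 fold change of alcohol over water (points) with its standard error (bars) for the 15 heat shock genes (left) and the 15 glucocorticoid-induced genes (right), under CNO (filled) and under vehicle (open), ordered by p under CNO. Under CNO, 13 of 15 points lie left of 0 in each panel; under vehicle the medians are 0.0010 and 0.070.

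Immediate early genes, which neurons switch on within minutes of activity, had 15 of 17 members negative with a median of -0.13, but 2 (11.8%) were lower at an unadjusted p under 0.05, against 3.66% of all genes. Leaving out 1 library at a time gave 1 to 4 such members. The lowest, median and highest Egr4 levels were 13.2, 22.6 and 25.1 CPM in alcohol and 19.3, 25.3 and 29.5 CPM in water drinkers. Egr4, a zinc finger transcription factor, was below the water median in 12 of 12 alcohol libraries, at a log2 fold change of -0.28 ± 0.11. In alcohol drinkers Nr4a2 stood at 2.10, 10.7 and 31.8 CPM (lowest, median, highest), and in water drinkers at 2.79, 20.7 and 42.8 CPM. Nr4a2, an orphan nuclear receptor, had -0.77 ± 0.36 with a spread of over 10-fold within each group. Nr4a2 also marks cortical neurons and stands in that marker list. Fos levels were 5.72, 10.0 and 23.4 CPM in alcohol libraries, from lowest over median to highest, and 8.43, 12.6 and 17.8 CPM in water libraries. The groups overlapped for Fos, at -0.069 ± 0.20. Arc had -0.22 ± 0.17, Nr4a1 -0.23 ± 0.16 and Npas4 0.17 ± 0.24. The mean log2 CPM of the list was 4.61 ± 0.35 (SD, n = 12) in alcohol and 4.81 ± 0.21 (SD, n = 11) in water drinkers. The 3 libraries low in cortical markers had low scores here too. Alcohol replicates 2 and 12 were the lowest of their group at 4.17 and 4.23, and water replicate 1 was the lowest of its group at 4.40. But alcohol replicate 6 also stood at 4.23. Its cortical marker score was 4.80, above the alcohol CNO median of 4.31. Without the 3 libraries low in cortical markers the list median was -0.10 with 2 lower members (525 of 15868 genes were lower). With the cortical marker score as a covariate it was -0.083 with 1 (457 of 15852 genes). The part of cortical tissue in these values was not tested. Endoplasmic reticulum chaperones and stress genes had 17 of 19 negative and a median of -0.073, with 0 at an unadjusted p under 0.05.

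Lists for the machinery of energy and protein supply had mostly negative members by small amounts. Mitochondrial ribosomal proteins had 34 of 43 members negative, 9 lower and 1 higher at an unadjusted p under 0.05 (3.66% and 2.85% of all genes), and a median of -0.053. Leaving out 1 library at a time gave 4 to 11 lower members, with the 4 found without water replicate 10. Lowest, median and highest values of Mrpl41 came to 32.0, 36.1 and 42.8 CPM with alcohol and 32.6, 39.9 and 47.6 CPM with water. Mrpl41 had a log2 fold change of -0.15 ± 0.064 and Mrps24 -0.15 ± 0.059. Complex I subunits of the respiratory chain had 33 of 37 negative with a median of -0.051, led by Ndufab1 at -0.20 ± 0.072. Complex IV subunits had 11 of 11 negative with a median of -0.077, with Cox8a at -0.13 ± 0.057 and Cox5a at -0.10 ± 0.046. ATP synthase subunits had 14 of 15 negative, and the exception was Atp5g2 at 0.29 ± 0.14. Cytosolic ribosomal proteins had 48 of 58 negative with a median of -0.067, and proteasome subunits 27 of 31 with a median of -0.048. Rplp1, an acidic protein of the ribosomal stalk, had -0.25 ± 0.10, and Psmb4, a subunit of the proteasome core, -0.10 ± 0.042. Ribosomal protein genes have many processed pseudogenes, so their counts are uncertain. Under vehicle most of these lists leaned the same way. There 40 of 43 mitochondrial ribosomal (median -0.046), 35 of 37 complex I (-0.058) and 11 of 11 complex IV members (-0.067) were negative. So were 15 of 15 ATP synthase (-0.045) and 53 of 58 cytosolic ribosomal members (-0.055), but only 17 of 31 proteasome subunits (-0.011).

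A library measure moved with these groups of genes. The no-feature share, the uniquely aligned reads that fell outside annotated exons, was 19.3% ± 1.37 in alcohol (SD, n = 12) and 18.1% ± 1.45 in water libraries (SD, n = 11). A two-sided permutation test gave p = 0.060, and 0.180 after adjustment over the 6 library measures. The share of ambiguous reads was 0.546% ± 0.0197 in alcohol (SD, n = 12) and 0.566% ± 0.0212 in water libraries (SD, n = 11), with p = 0.031 in the same permutation test and also 0.180 after adjustment. The no-feature share was higher in alcohol in 6 of 8 blocks of consecutive S numbers. With this share as a covariate, the list medians became 0.00011 for mitochondrial ribosomal proteins, 0.0026 for complex I, -0.015 for complex IV, -0.0098 for cytosolic ribosomal proteins and 0.0062 for the proteasome, and 1 mitochondrial ribosomal gene was lower at an unadjusted p under 0.05. The heat shock median was -0.090 with 5 lower members, the glucocorticoid median -0.080 with 5, and the immediate early median -0.14 with 1. In this fit 854 of 15852 genes were lower at that p, against 580 without the covariate.

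**Figure D3:**
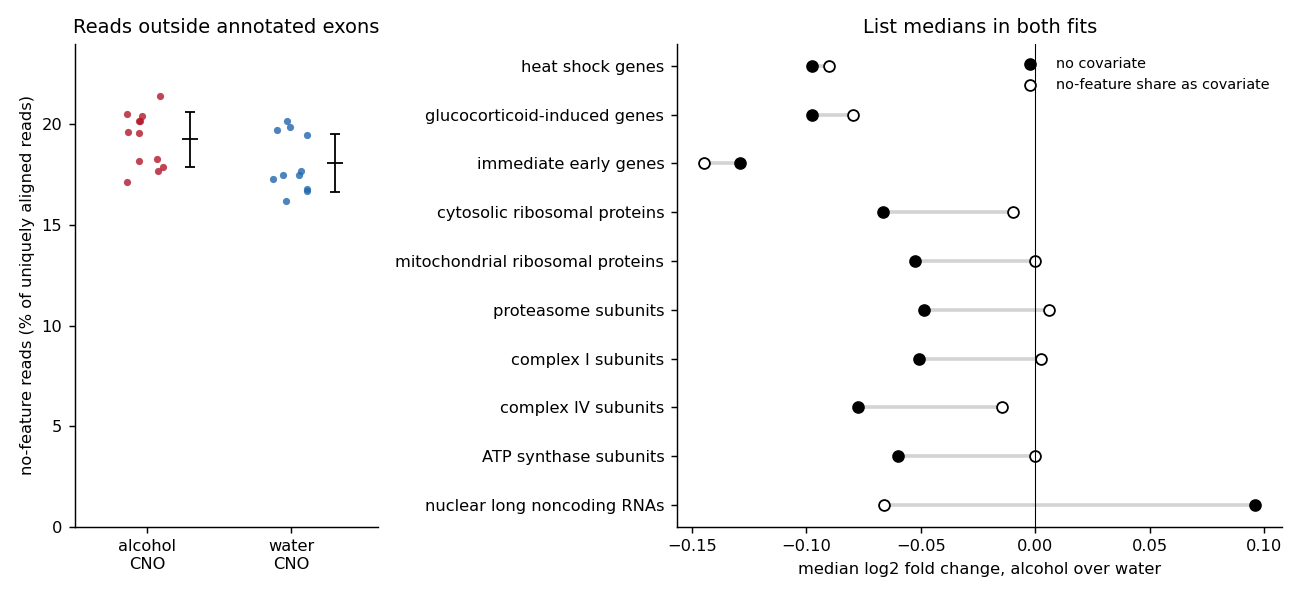
Left, no-feature share of uniquely aligned reads in each library (points) with mean ± SD, for alcohol CNO (n = 12) and water CNO (n = 11). Right, median log2 fold change of 10 lists without (filled) and with (open) that share as a covariate: the 6 lists of energy and protein supply have medians between -0.015 and 0.0062 with it, and the nuclear RNAs have -0.066 with it and 0.096 without, while the 3 stress and activity lists lie between -0.080 and -0.14 with it.

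Nuclear long noncoding RNAs had the opposite sign. Of 12, 9 were positive with a median of 0.096. At an unadjusted p under 0.05, 1 (8.33%) was higher, against 2.85% of all genes. Under vehicle 8 were negative with a median of -0.075. There 2 (16.7%) were lower at that p, against 2.42% of all genes. Malat1 gave 338, 543 and 715 CPM (lowest, median and highest library) in alcohol drinkers and 223, 350.5 and 544 CPM in water drinkers. Malat1, an abundant nuclear RNA, had a log2 fold change of 0.47 ± 0.17, with 11 of 12 alcohol libraries above the water median and 6 above every water library. Alcohol libraries had 2119, 4686 and 6566 CPM of Meg3 (lowest, median, highest), and water libraries 1872, 2892 and 5699.8 CPM. Meg3 had 0.30 ± 0.22. With the no-feature share as a covariate the list median was -0.066, and Meg3 had -0.074. Among splicing and RNA-binding factors 15 of 20 were positive, with Son, a large scaffold of nuclear speckles, at 0.13 ± 0.050 and Srsf3 at -0.081 ± 0.035.

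Exon length moved with the log2 fold change across all genes. In the 3049 genes with the shortest exons in total (median 1.67 kb) the median log2 fold change was -0.029, with 208 genes lower and 64 higher at an unadjusted p under 0.05. In the 3048 genes with the longest (median 9.74 kb) it was 0.033, with 28 lower and 147 higher. Over all 15852 genes tested, 580 (3.66%) were lower and 451 (2.85%) higher at that p. Under vehicle the sets with the shortest and the longest exons had medians of -0.035 and 0.042. With the no-feature share as a covariate they had -0.014 and 0.018 under CNO. Whether length or the no-feature share accounts for the values of the short genes above was not tested.

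Lists of neuronal ion channels and receptors differed in sign from one another, and 51.8% of all genes were positive. Potassium channels other than BK had 15 of 27 positive (median 0.0029), BK channel genes 3 of 6 (-0.019), GABA-A receptor subunits 7 of 13 (0.010), glycine receptors and their anchoring 4 of 8 (0.0082) and muscarinic receptors with Gq signalling 7 of 16 (-0.00093). Sodium and calcium channel genes had 17 of 19 positive and a median of 0.066. Scn1a ran over 124, 149.7 and 175 CPM (lowest, median, highest) in the alcohol group and 116, 139 and 148 CPM in the water group. Scn1a, a sodium channel of fast-spiking cells, had a log2 fold change of 0.16 ± 0.076 and 6 of 12 alcohol libraries above every water library. For Cacna1d the lowest, median and highest values were 57.6, 70.9 and 77.2 CPM in alcohol and 53.1, 57.3 and 76.8 CPM in water libraries. Cacna1d, an L-type calcium channel that shapes medium spiny neuron firing, was above the water median in 12 of 12 alcohol libraries at 0.14 ± 0.070. NMDA receptor subunits, direct targets of alcohol, had 7 of 7 positive with a median of 0.049 and 0 at an unadjusted p under 0.05. Grin2b had 61.5, 84.0 and 102 CPM in the lowest, median and highest alcohol libraries, against 19.0, 76.1 and 93.1 CPM in the water libraries. Grin2b had 0.31 ± 0.20, and its lowest water library lay far below that group's median. With the no-feature share as a covariate, 4 of 7 NMDA subunits were positive.

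The lowest, median and highest Gabra5 levels were 43.5, 53.3 and 62.0 CPM in alcohol and 47.7, 61.2 and 79.0 CPM in water drinkers. Gabra5, the alpha5 subunit of the GABA-A receptor, had a log2 fold change of -0.15 ± 0.071 and was the only GABA-A receptor gene tested at an unadjusted p under 0.05. In alcohol drinkers Ntrk3 stood at 83.1, 102 and 115 CPM (lowest, median, highest), and in water drinkers at 81.4, 93.3 and 107 CPM. Ntrk3, the receptor of neurotrophin-3, had 0.14 ± 0.051. Lrrc55, an auxiliary subunit of BK potassium channels, had 0.20 ± 0.090, and Kcnd3, an A-type potassium channel, 0.11 ± 0.052. Slc18a2 levels were 4.08, 5.75 and 6.93 CPM in alcohol libraries, from lowest over median to highest, and 5.24, 6.17 and 8.61 CPM in water libraries. Slc18a2, the vesicular monoamine transporter, had -0.24 ± 0.10 under CNO and -0.28 ± 0.10 under vehicle. edgeR's adjusted p was 0.736 for Ntrk3 and at least 0.738 for the others of this paragraph.

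**Figure D4:**
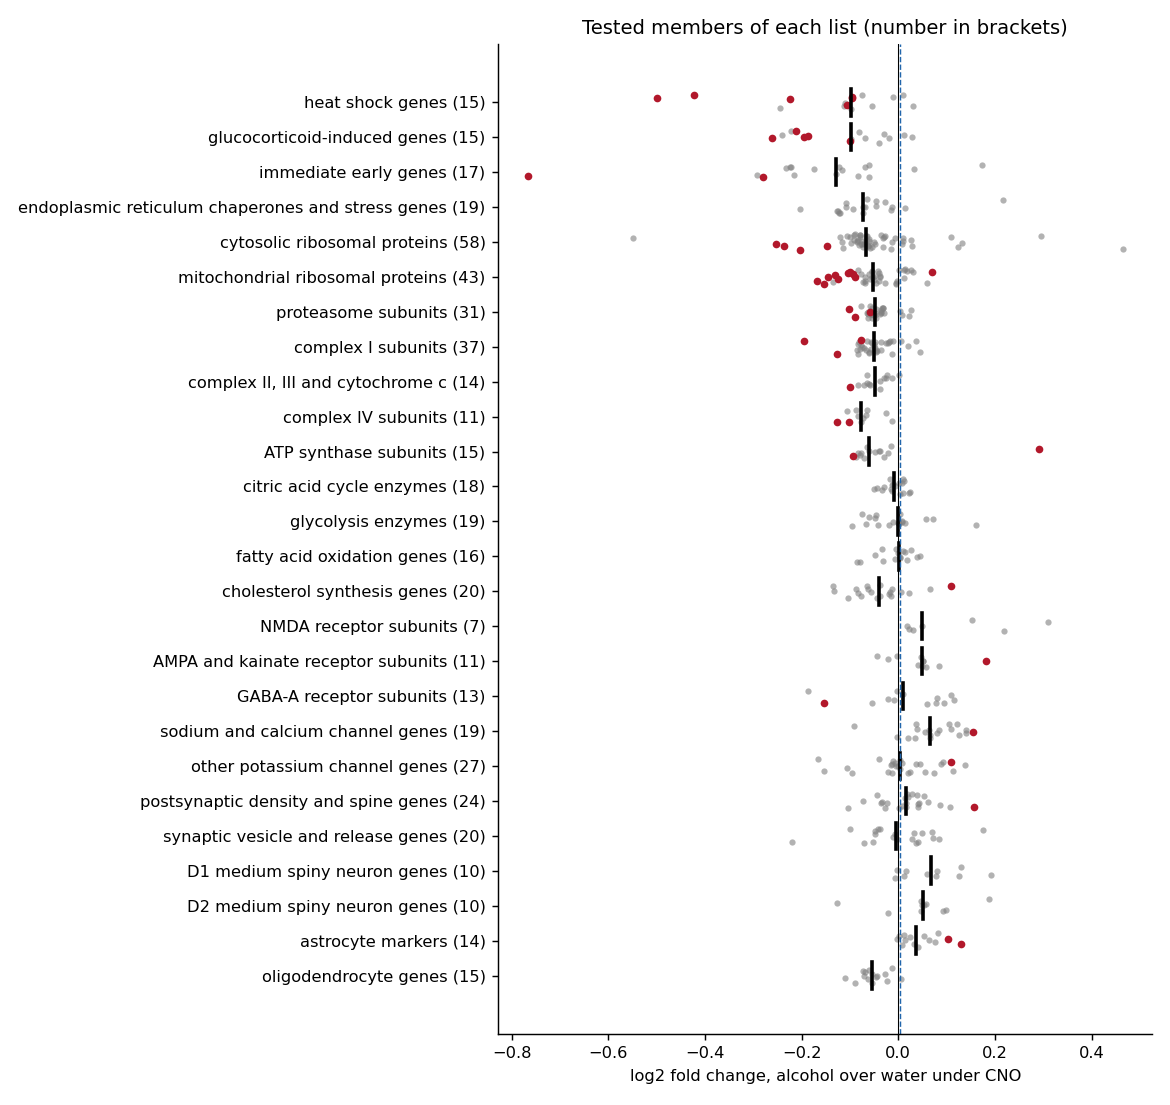
Log2 fold change of alcohol over water under CNO for each tested member (points) of 26 lists, with list medians (black bars) and the median of all 15852 genes (dashed line); red points have an unadjusted p under 0.05. Stress, ribosomal and respiratory lists have medians between -0.048 and -0.13, and the channel and receptor lists shown between 0.0029 and 0.066.

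Genes of the dopamine-receptive neurons differed little. Lowest, median and highest values of Drd1 came to 192, 232 and 308 CPM with alcohol and 182, 222 and 273 CPM with water. Drd1, the D1 dopamine receptor, was above the water median in 11 of 12 alcohol libraries at a log2 fold change of 0.080 ± 0.069. Drd2 gave 101, 119 and 168 CPM (lowest, median and highest library) in alcohol drinkers and 97.6, 119 and 139 CPM in water drinkers. Drd2 had 0.047 ± 0.079 and the groups overlapped. Tac1, which encodes substance P, had 0.13 ± 0.075, Pdyn, the dynorphin precursor, 0.078 ± 0.065, and Penk, the enkephalin precursor, 0.057 ± 0.065. Alcohol libraries had 436, 551 and 663 CPM of Rgs9 (lowest, median, highest), and water libraries 279.7, 477 and 569 CPM. Rgs9, a striatal regulator of dopamine receptor signalling, had 0.23 ± 0.12. The D1 list had 8 of 10 positive (median 0.068) and the D2 list 8 of 10 (median 0.051), with 0 at an unadjusted p under 0.05 in either. Bdnf had -0.55 ± 0.35 and Chrm3 -0.060 ± 0.28. Chrm3 ran over 15.8, 96.6 and 184 CPM (lowest, median, highest) in the alcohol group and 32.0, 111 and 162 CPM in the water group. Chrm3, the mouse gene of the receptor from which hM3Dq was built, varied by more than 5-fold within each group. All mice carried the hM3Dq virus, and whether reads of hM3Dq were counted for Chrm3 was not tested.

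Some cell type marker lists had medians further from 0. Cholinergic interneuron genes had 9 of 10 positive with a median of 0.22. Of these, 2 (20%) were higher at an unadjusted p under 0.05, against 2.85% of all genes, and 0 to 4 when 1 library at a time was left out. For Slc5a7 the lowest, median and highest values were 25.6, 34.3 and 58.6 CPM in alcohol and 13.7, 28.2 and 48.5 CPM in water libraries. Slc5a7, the choline transporter of these cells, had a log2 fold change of 0.32 ± 0.13, Slc10a4 0.26 ± 0.13 and Chat, the acetylcholine synthase, 0.24 ± 0.13. The list score averaged 3.53 ± 0.37 (SD, n = 12) in alcohol and 3.35 ± 0.29 (SD, n = 11) in water drinkers, and its median was 0.11 with the cortical marker score as a covariate and -0.0063 with surrogate variables. Cortical glutamatergic markers had 13 of 14 negative with a median of -0.33, or -0.24 without the 3 libraries low in these markers. With the marker score as a covariate the median was 0.044. That score is the mean of these same genes, so a value near 0 was built in and says nothing about them. Slc17a7, the cortical vesicular glutamate transporter, had -0.39 ± 0.33. Ependymal markers had 8 of 8 negative with a median of -0.44 and 2 (25%) lower at an unadjusted p under 0.05, against 3.66% of all genes: Ccdc153 (-0.89 ± 0.40) and Tmem212 (-1.23 ± 0.59). There were 0 such members with the S-number block as a covariate, and 0 to 5 when 1 library at a time was left out. Their score averaged -0.19 ± 0.45 (SD, n = 12) in alcohol and 0.31 ± 0.53 (SD, n = 11) in water drinkers. Cortical and ependymal tissue borders the accumbens or its ventricle, and the part that dissection or these cells play in the other values was not tested.

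**Figure D5:**
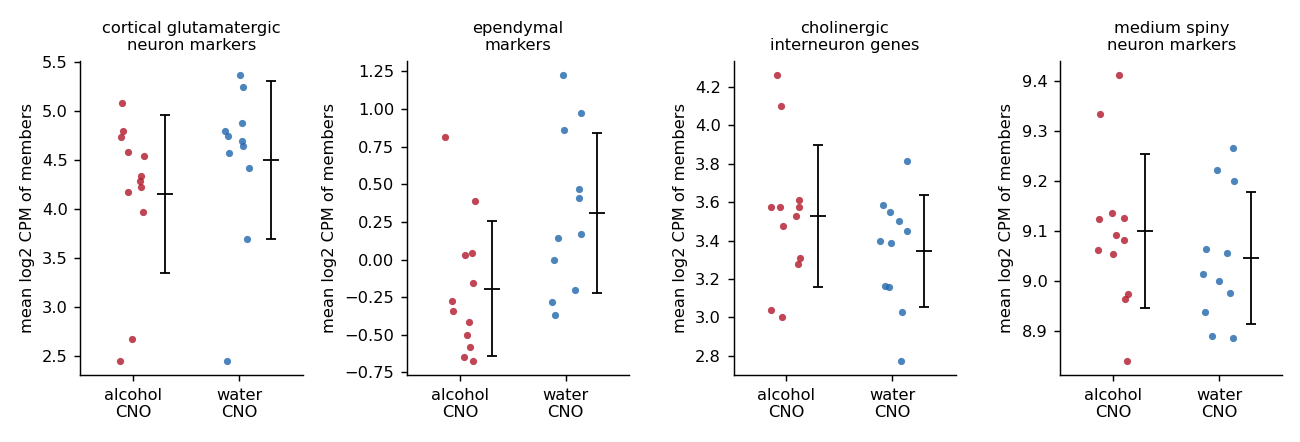
Mean log2 CPM of 4 marker lists in each library (points) with mean ± SD, for alcohol CNO (n = 12) and water CNO (n = 11). In the cortical panel 3 libraries lie below 2.7, and in all 4 panels the groups overlap.

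Glial lists had medians nearer 0. Oligodendrocyte genes had 14 of 15 negative under CNO with a median of -0.055 and 0 at an unadjusted p under 0.05. Under vehicle 15 of 15 were positive with a median of 0.15. There 8 (53.3%) were higher at that threshold, against 5.94% of all genes. The list score had a median of 6.65 in alcohol vehicle libraries. It was 6.81 and 6.84 in replicates 5 and 10, whose antigen presentation scores were 7.08 and 5.58. Replicate 2 was the highest at 6.94, with an antigen presentation score of 2.75. Mbp had 1597, 2153 and 2546 CPM in the lowest, median and highest alcohol libraries, against 1783, 2229.7 and 2554 CPM in the water libraries. Mbp, a main protein of myelin, had -0.090 ± 0.082 under CNO and 0.12 ± 0.083 under vehicle. Cldn11, the tight junction protein of myelin, was among the 10 genes with the smallest p for the difference between the fluid effects, at -0.34 ± 0.10, but with an adjusted p of 0.983 in edgeR. Astrocyte markers had 13 of 14 positive with a median of 0.037. At an unadjusted p under 0.05, 2 (14.3%) were higher, against 2.85% of all genes. Fgfr3, an astrocyte growth factor receptor, had 0.10 ± 0.040 under CNO and 0.11 ± 0.041 under vehicle. Microglia markers had 15 of 18 positive (median 0.068) and endothelial and mural cell markers 12 of 16 (median 0.056), with 0 at an unadjusted p under 0.05 in both.

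Interferon-induced genes were positive in 18 of 19 cases with a median of 0.33, yet 0 had an unadjusted p under 0.05. The largest were Cxcl10 at 0.88 ± 0.67 and Mx1 at 0.74 ± 0.54. The lowest, median and highest Mx1 levels were 0.151, 0.559 and 4.42 CPM in alcohol and 0.242, 0.444 and 0.852 CPM in water drinkers. The list score ran from 0.49 to 2.94 in alcohol and from 0.78 to 1.72 in water libraries. Alcohol replicate 9 was the highest at 2.94. Alcohol replicates 5, 10 and 2 (2.00, 1.99 and 1.99) also lay above the water range, and replicate 12 (0.49) below it. Leaving out 1 library at a time moved the median between 0.068 and 0.40. Antigen presentation genes had 12 of 14 positive with a median of 0.048, and lymphocyte and plasma cell genes 3 of 6.

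Genes that handle alcohol itself or fuel use were near 0. The 12 tested genes of alcohol, aldehyde and acetate metabolism had a median of 0.028 and 0 at an unadjusted p under 0.05, and Aldh5a1, which clears the GABA breakdown product succinic semialdehyde, had the smallest p at 0.071 ± 0.043. Glycolysis (median -0.00099), citric acid cycle (-0.0093) and fatty acid oxidation genes (0.0012) also had 0 at that threshold. Cholesterol synthesis genes had 16 of 20 negative with a median of -0.041, with Lss, lanosterol synthase, among the positive ones at 0.11 ± 0.042. The clock gene Arntl had -0.10 ± 0.043 under CNO and -0.089 ± 0.044 under vehicle, and Sod1, a superoxide dismutase, -0.072 ± 0.032 and -0.061 ± 0.033 in the same order.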

How the data were processed

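RNA-seq counts from 45 nucleus accumbens libraries were used, each from 1 mouse and grouped by the labels. Each deposited file holds raw counts of reads per gene symbol for 1 library. Per the submitters' processing notes, FastQC, STAR and HTSeq 0.9.1 were used with the GRCm38 (mm10) build; annotation, strand setting and counting mode: not given in the sources used here. The 5 summary rows of each file were kept apart from its 24421 gene symbols.

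Genes were filtered with filterByExpr by group (15852 kept), scaled by TMM and fitted in edgeR 4.0.16 (R 4.3.3, quasi-likelihood, robust) over all 45 libraries, with 1 coefficient per group. P-values were adjusted by Benjamini-Hochberg over all genes tested, and the threshold was 0.05. A standard error is |log2 fold change| over the root of F. CPM are TMM-scaled, with a prior count of 2 on the log2 scale. Library measures were compared by two-sided permutation tests with 100000 resamples.

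Named genes were the 12 higher and 12 lower with the smallest p at a mean log2 CPM of at least 0, 9 genes of the region, and the 3 smallest-p members in each of 58 lists (of 60) that had at least 3 tested. Other members of the stress and marker lists, and genes from the comparison with vehicle, were named after their values were seen. The members and lists were chosen with earlier results of these data known. Alternatives were other size factors, filters and covariates, the 23 CNO libraries alone, DESeq2 1.42.0, voom (limma 3.58.1), surrogate variables (sva 3.50.0, 6 used), and leaving out each library. The scripts were tested on simulated data. The 8 S-number blocks were read from the titles and are not stated to be batches. In 231 pairs of libraries within a group, the lowest ratio of the difference to counting noise was 7.49, so no library was counted as a duplicate. Locations and exon lengths come from GENCODE vM21, and promoters from RefSeq. Mitochondrially encoded genes and 2 antibody genes were not analysed here, and some genes that the rule selects are not reported here.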

Additional observations from a re-analysis of the deposited data

How the results depend on the processing

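No paired analysis was possible because each library is a different mouse and the labels give no number shared across groups. The count of 0 genes past the adjusted threshold held under other size factors, both filters, the 23 CNO libraries alone, the S-number block, the no-feature and cortical covariates, DESeq2 and the removal of any 1 library. It was 6 with surrogate variables (Zfp622, Ubfd1, Inafm1, Stambpl1 and Bag1 lower, Eml6 higher) and 1 with voom and sample weights (Emc6); the cause was not tested. The count of genes at an unadjusted p under 0.05 was 1557 with the no-feature share as a covariate, 1561 with both covariates, 1558 with surrogate variables and 2148 with voom. Leaving out 1 library at a time gave 759 to 1605 such genes, with the 1605 found without alcohol replicate 3.

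Of 2931 fold changes of named genes under alternatives, 2900 kept their sign. Most named genes were picked for the smallest p in this same comparison, and alternatives such as other size factors change the fit little. Kept signs were therefore partly built in. The 31 fold changes that turned belong to 20 genes. Without the 3 libraries low in cortical markers, Chrm3 was 0.017, Drd2 -0.013 and Fos 0.0028. With the cortical score as a covariate, Drd2 was -0.024, Mzb1 0.059 and Grm2 0.024. With the no-feature share, Fh1 was 0.014, Etfb 0.0037, Meg3 -0.074, Srrm2 -0.0099 and Bcan -0.010. With both covariates, Drd2 was -0.029, Mzb1 0.090, Per3 -0.0067, Fh1 0.013, Prdx5 0.0043, Kcnmb4 0.023, Gnb1 0.0026, Chrm4 -0.012, Meg3 -0.080, Srrm2 -0.012 and Bcan -0.028. With surrogate variables, Avpr1a was -0.12, Grin2d -0.037, Slc6a9 -0.0051, Kcnmb1 0.049 and Chrm4 -0.018. Gfap was -0.062 with voom. Leaving out 1 library at a time gave -0.18 to 0.050 for Chrm3, -0.0029 to 0.074 for Drd2 and -0.061 to 0.17 for Gfap. The cause of these turns was not tested. Alternatives that leave out the 3 libraries low in cortical markers or use both covariates together were chosen after seeing the data. Genes at few CPM, such as Hspa1a, Tmem212 and Mx1, had standard errors above 0.15 on the log2 scale; how much of this is counting error and how much spread between mice was not tested.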
